A study of Homo sapiens with 4 samples.

Results

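The set holds 10 genes that BMP and TGF-beta signals are known to switch on, or that brake those signals: the ID proteins ID1, ID2, ID3 and ID4, the inhibitors of SMAD signalling SMAD6, SMAD7, BAMBI, SKI and SKIL, and the ligand TGFB1. They were chosen by symbol, and all 10 are among the 28103 gene symbols of the count table. The filter on low counts left 9 of them, and ID4 did not pass. Poly(A) RNA had been sequenced from HEL, an established leukaemia line that the labels call a human erythroblast. In 1 group of 2 libraries, called Ctrl, the genotype is given as WT, and in the other group of 2, called AFF4_KD, as AFF4 knockdown. Both groups are the same line in the same medium (RPMI-1640 with FBS and antibiotics), and no BMP or TGF-beta treatment is named. AFF4 holds together the super elongation complex, a set of factors that helps RNA polymerase II leave its pause near the promoter, and the series asks how its loss acts on that step. The sources used here do not give how AFF4 was knocked down or whether the replicates were separate cultures, and the spread behind each p-value, taken from these libraries alone, may therefore be technical.

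TGF-beta and BMP ligands bring together type I and type II receptor kinases, which phosphorylate the receptor SMADs. SMAD2 and SMAD3 carry TGF-beta and activin signals and SMAD1, SMAD5 and SMAD9 carry BMP signals, in each case with SMAD4. The ID genes are classic BMP targets. ID proteins have a helix-loop-helix but no DNA-binding basic region, and they hold E proteins such as TCF3, TCF4 and TCF12 away from DNA, in blood cells also from partners such as TAL1. SMAD6 and SMAD7 are inhibitory SMADs that are induced by the pathway and act on its receptors, BAMBI is a pseudoreceptor without a kinase domain, and SKI and SKIL are nuclear corepressors that bind SMADs.

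In GENCODE v29 (GRCh38) the genes lie apart on the genome, with ID3 and SKI on the same chromosome. The ID genes are ID1 at chr20:31605283-31606515 (plus strand), ID2 at chr2:8678845-8684453 (plus strand), ID3 at chr1:23557918-23559794 (minus strand) and ID4 at chr6:19837386-19840684 (plus strand). The inhibitors are SMAD6 at chr15:66702228-66782848 (plus strand), SMAD7 at chr18:48919853-48952052 (minus strand), BAMBI at chr10:28677342-28682939 (plus strand), SKI at chr1:2228695-2310119 (plus strand) and SKIL at chr3:170357678-170396835 (plus strand), and the ligand is TGFB1 at chr19:41301587-41353911 (minus strand).

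Total counts lay between 14903878 and 19129008 per library. AFF4, the targeted gene, was at 88.3 and 69.2 CPM (counts scaled to library size by TMM) in Ctrl 1 and Ctrl 2 and at 18.7 and 18.9 CPM in knockdown 1 and 2. This is a difference of -2.07 ± 0.19 on the log2 scale (SE), in the direction of the labels, with an adjusted p of 0.0268 in the quasi-likelihood test of edgeR. The erythroid marker GATA1 had 3356 to 4461 counts per library and the megakaryocytic marker ITGA2B had 16449 to 23080. Of 14 markers of other blood and tissue cells, CD3D, CD3E, COL1A2 and DCN were at 0 in every library, whereas KRT18 (486 to 599 counts) and PECAM1 (2501 to 3464 counts) were present in all 4. Within the erythroid markers GATA1 went from 239.2 to 240.8 CPM, KLF1 from 146.4 to 168.4 CPM and TAL1 from 435.7 to 474.5 CPM, while the fetal globins were at lower levels in the knockdown. HBG1 went from 4165 to 2292 CPM and HBG2 from 6556 to 4091 CPM (Ctrl mean, then knockdown mean, n = 2 each). The part of the globin difference in the values of the members was not tested. The knockdown libraries were far closer to each other than the Ctrl libraries: the median absolute log2 gap over the 13572 tested genes was 0.0901 between the knockdown libraries and 0.343 between the Ctrl libraries. In bulk RNA, fewer cells that express a gene and less of its RNA per cell cannot be told apart.

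Of the 9 tested members 0 passed the edgeR test at an adjusted p under 0.05, against 0.641% of all tested genes. At an unadjusted p under 0.05, reached by 15% of tested genes (6.79% higher and 8.19% lower), BAMBI was higher and ID2, ID3 and SMAD6 were lower. DESeq2, which called 2.99% of tested genes, called ID2 and BAMBI, and limma-voom, which called 0.678%, called 0 members. In 7 of the 9 members the groups did not overlap, with the knockdown libraries higher in 3 and lower in 4, as did 46.1% of tested genes (23.1% higher and 23% lower). The median log2 fold change of the 9 was -0.38, against -0.0089 over all tested genes. Other processing moved the members' count together with that of all genes. It was 2 with no filter (3.89% of all genes called) and 2 with the replicate number as a block (6.54%), 8 with that block and a correction for GC content (38%), 6 without Ctrl 1 (44%) and 6 without Ctrl 2 (48.4%). It was 0 without knockdown 1 (0.331%), without knockdown 2 (0.366%), with a filter of 5 CPM in 2 libraries (0.0462%), with RLE scaling (0.648%), with library-size scaling (0.545%) and at an adjusted p under 0.01 (0.0221%).

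**Figure D1:**
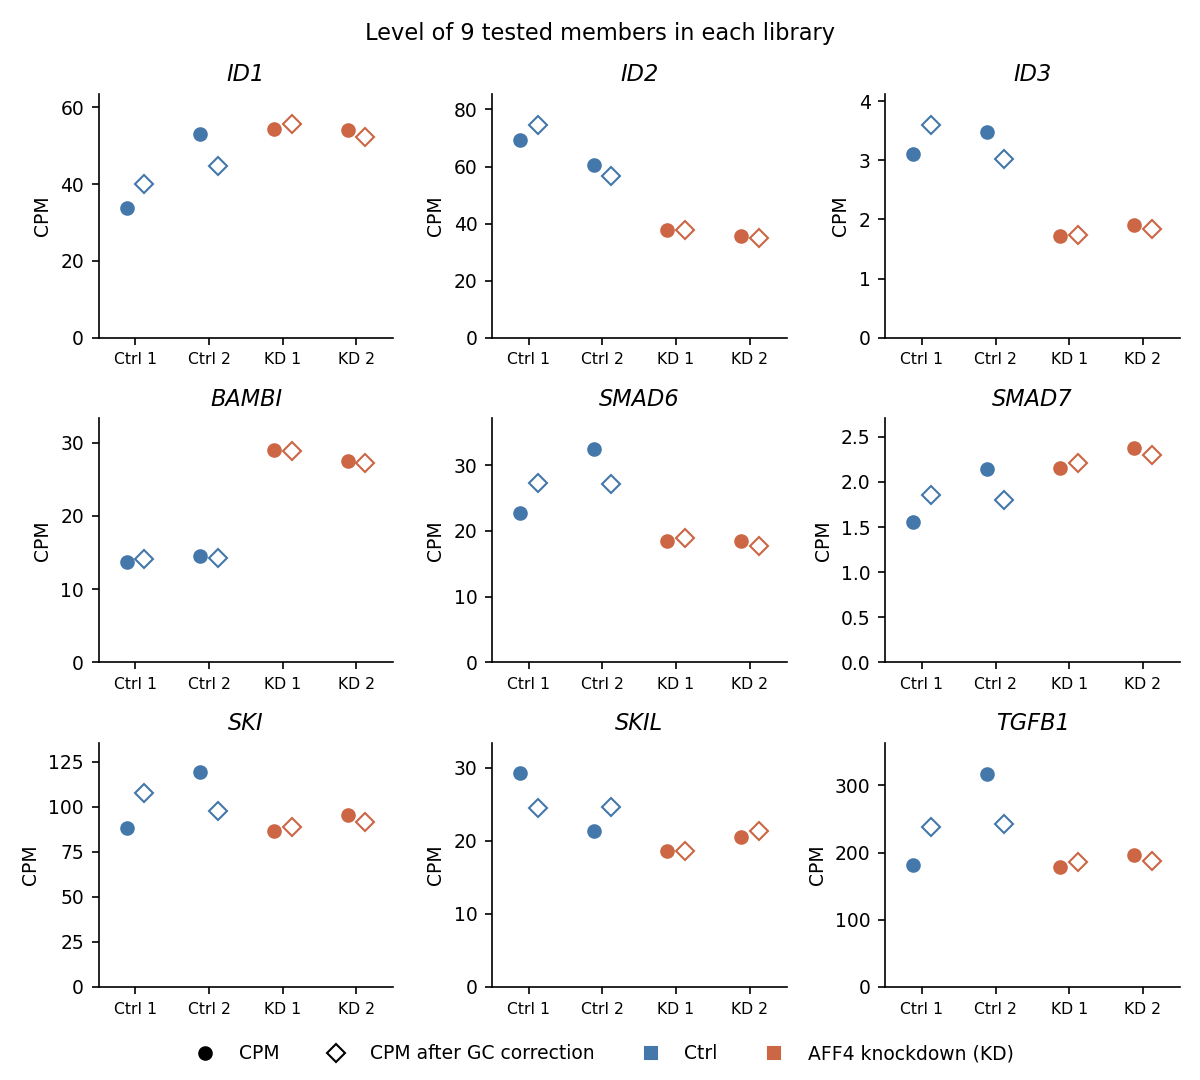
CPM of the 9 tested members (vertical axes, each from 0) in the 4 libraries (horizontal axes). Filled circles are CPM and open diamonds are CPM after a correction for transcript GC content. BAMBI lies at 13.7 and 14.5 CPM in Ctrl and at 29.02 and 27.6 CPM in the knockdown, while the filled circles of TGFB1 in the Ctrl libraries lie far apart, at 181.9 and 317.7 CPM.

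BAMBI had the smallest p of the members. This pseudoreceptor resembles a type I receptor and blocks receptor signalling. It was at 13.7 and 14.5 CPM in the Ctrl libraries and at 29.02 and 27.6 CPM in the knockdown libraries, from 256 and 217 counts and 525 and 464 counts. Both knockdown libraries were well above both Ctrl libraries, and the libraries of each group differed little. The log2 fold change was 1.003 ± 0.18 (SE; 95% interval 0.58 to 1.43), a 2.004-fold higher level, and its edgeR adjusted p was 0.0661. By unadjusted p it ranked 163 of 13572 tested genes. Its log2 fold change stayed between 0.96 and 1.04 over 13 alternative settings. With all libraries kept, it was called with no filter, in DESeq2 and with the replicate block (3.89%, 2.99% and 6.54% of all tested genes). It was also called after the GC correction, without and with that block (28.1% and 38% of all tested genes).

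ID2 was the member with the next smallest p, in the opposite direction. It was at 69.3 and 60.5 CPM in Ctrl and at 37.7 and 35.6 CPM in the knockdown, from 1295 and 903 counts and 682 and 599 counts. The 2 groups were clearly apart. The log2 fold change was -0.82 ± 0.17 (SE; 95% interval -1.22 to -0.43), a 1.77-fold lower level, with an edgeR adjusted p of 0.0860. Among the settings that keep all libraries, ID2 was called in the same ones as BAMBI. Over the 13 alternatives its log2 fold change lay between -0.92 and -0.72. Its exons share 38 bases, 1.7% of their length, with the antisense gene ID2-AS1, which had 5 to 21 counts per library. The libraries keep strand, but whether the counting used it is not stated in the sources at hand, so reads from that stretch cannot be assigned to 1 of the 2 genes.

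ID3 had a log2 fold change close to that of ID2 from far fewer reads. Its counts were 58 and 52 in Ctrl against 31 and 32 in the knockdown, which is 3.11 and 3.48 CPM and 1.71 and 1.90 CPM. The groups did not overlap in CPM. Exact 95% Poisson intervals of single counts were wide. They overlapped in Ctrl 2 (38.8 to 68.2 counts) and knockdown 2 (21.9 to 45.2 counts). In Ctrl 1 (44.04 to 74.98 counts) and knockdown 1 (21.06 to 44.00 counts) they just failed to overlap. These intervals cover counting error only and are not scaled to library size, so they do not compare levels between libraries. The log2 fold change was -0.86 ± 0.26 (SE; 95% interval -1.47 to -0.26) and its edgeR adjusted p was 0.185.

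ID1 lay on the other side of its Ctrl libraries from ID2 and ID3. It was at 33.7 and 53.2 CPM in Ctrl and at 54.4 and 54.0 CPM in the knockdown. Ctrl 2 was nearly as high as the knockdown libraries, and Ctrl 1 was the library that stood low. The log2 fold change was 0.32 ± 0.23 (SE; 95% interval -0.23 to 0.87; edgeR adjusted p = 0.607), smaller than the log2 gap of 0.66 between the Ctrl libraries. It was 0.03 without Ctrl 1 and 0.68 without Ctrl 2, so its size depends on which Ctrl library is used. ID4 was close to absent, with 1 and 0 counts in Ctrl against 2 and 0 in the knockdown. A count of 0 still allows 0.201 CPM in Ctrl 2 and 0.178 CPM in knockdown 2 (3 counts), so no difference in ID4 was detectable at this depth.

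The make-up of the ID transcripts can be read inside each library, where the scaling of libraries cancels. Differences between libraries that follow GC content, described below, do not cancel, since ID1 has 58.6% GC and ID2 53.3%. ID2 had 2.06 and 1.14 counts per count of ID1 in Ctrl 1 and Ctrl 2, and 0.693 and 0.659 in the knockdown libraries. Divided by exonic length, ID1 made up 45.2% and 59.5% of the ID transcripts in Ctrl and 70.9% and 71.8% in the knockdown, whereas ID2 made up 51.9% and 37.8%, then 27.5% and 26.5%. By this measure ID1 was the larger part in 3 libraries and ID2 in Ctrl 1 alone. Without division by length ID2 was the larger part in both Ctrl libraries (51.6% against 45.4% for ID1 in Ctrl 2). ID1 was then the larger part in both knockdown libraries, so the lead in Ctrl 2 depends on the length used. The sum of the 4 ID genes was 60.6 and 72.5 CPM per kb in Ctrl and 62.2 and 61.0 CPM per kb in the knockdown, and these ranges overlap. For comparison, the E proteins TCF3, TCF4 and TCF12 together were at 39.9 and 42.3 CPM per kb in Ctrl and 39.2 and 40.3 CPM per kb in the knockdown.

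**Figure D2:**
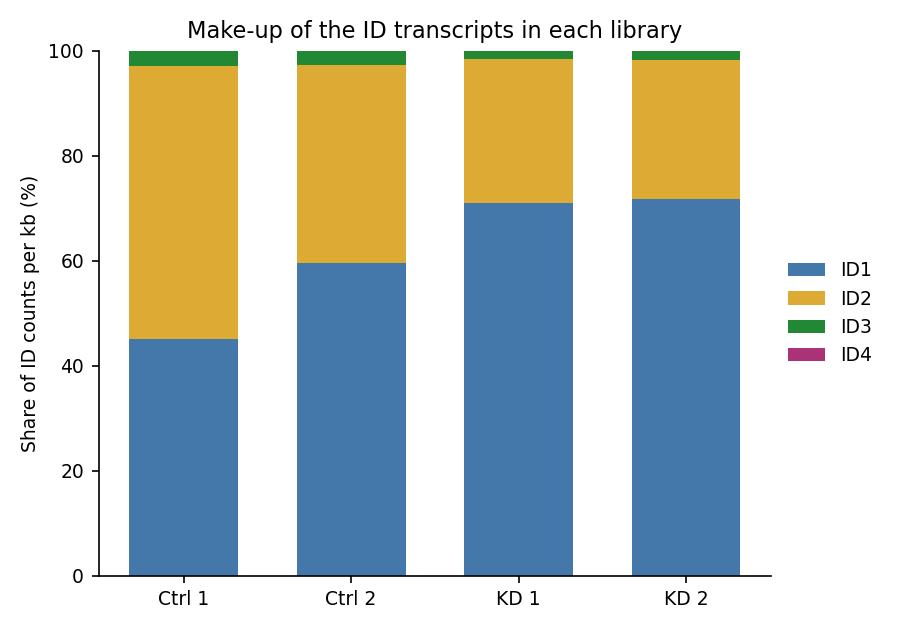
Share of each ID gene (vertical axis, percent of the summed counts per kb of exon) in the 4 libraries. The ID1 share is 45.2% and 59.5% in the Ctrl libraries against 70.9% and 71.8% in the knockdown libraries, and ID3 and ID4 together stay under 3% in each library.

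The inhibitory SMADs differed in level and in sign. SMAD6, which acts mainly on BMP receptor signalling, was at 22.8 and 32.5 CPM in Ctrl and at 18.5 and 18.4 CPM in the knockdown. The groups did not overlap, but the Ctrl libraries were far from each other. The log2 fold change was -0.58 ± 0.22 (SE; 95% interval -1.10 to -0.05; edgeR adjusted p = 0.288), and it was -0.81 without Ctrl 1 and -0.30 without Ctrl 2. SMAD7, which blocks both branches and recruits SMURF ubiquitin ligases to the receptors, was at 1.55 and 2.14 CPM in Ctrl and at 2.16 and 2.38 CPM in the knockdown. These values come from 29 and 32 counts and 39 and 40 counts, and knockdown 1 lay barely above Ctrl 2. Its log2 fold change was 0.31 ± 0.29 (SE; 95% interval -0.38 to 0.99; edgeR adjusted p = 0.718), and it was 0.08 without Ctrl 1 and 0.54 without Ctrl 2. The count of BAMBI per count of SMAD6, which the scaling of libraries does not touch, was 0.602 and 0.447 in Ctrl against 1.57 and 1.497 in the knockdown. Differences between libraries that follow GC content can still touch it, since BAMBI has 51.0% GC and SMAD6 58.9%.

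The corepressors and the ligand differed from Ctrl by less than the Ctrl libraries differed from each other. SKI was at 88.2 and 119.4 CPM in Ctrl and at 86.3 and 95.2 CPM in the knockdown, so its groups overlapped (log2 fold change -0.19 ± 0.19, SE; 95% interval -0.63 to 0.25; edgeR adjusted p = 0.721). SKIL, its paralog also called SnoN, was at 29.3 and 21.4 CPM in Ctrl and at 18.7 and 20.5 CPM in the knockdown. Knockdown 2 lay just under Ctrl 2, and the log2 fold change was -0.38 ± 0.21 (SE; 95% interval -0.88 to 0.13; edgeR adjusted p = 0.486). TGFB1, the most abundant member per length at 77.2 CPM per kb in Ctrl, was at 181.9 and 317.7 CPM in Ctrl and at 178.2 and 196.8 CPM in the knockdown. Ctrl 2 alone stood high, and the log2 fold change of -0.41 ± 0.25 (SE; 95% interval -1.01 to 0.18; edgeR adjusted p = 0.514) was -0.76 without Ctrl 1 and 0.04 without Ctrl 2. SKI turned from -0.39 without Ctrl 1 to 0.04 without Ctrl 2, and SKIL was -0.13 and -0.59 in the same fits. The exons of TGFB1 share 215 bases, 6.6% of their length, with HNRNPUL1 on the opposite strand (5489 to 6226 counts per library), and the same limit on strand applies.

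Per length, the order of the members in Ctrl was TGFB1 (77.2 CPM per kb), ID1 (35.2), ID2 (29.4), SKI (17.1), BAMBI (6.10), SKIL (3.26), SMAD6 (3.22), ID3 (1.83) and SMAD7 (0.367), with ID4 last. In the knockdown TGFB1 was at 57.9, ID1 at 43.9, ID2 at 16.6, SKI at 14.9, BAMBI at 12.2, SKIL at 2.52, SMAD6 at 2.16, ID3 at 1.01 and SMAD7 at 0.450 CPM per kb. The order was thus the same in both groups, and BAMBI came close to SKI and ID2 in the knockdown. ID1 and ID2 in Ctrl, and SKIL and SMAD6 in Ctrl, are neighbours whose means differ by less than the spread between the Ctrl libraries.

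**Figure D3:**
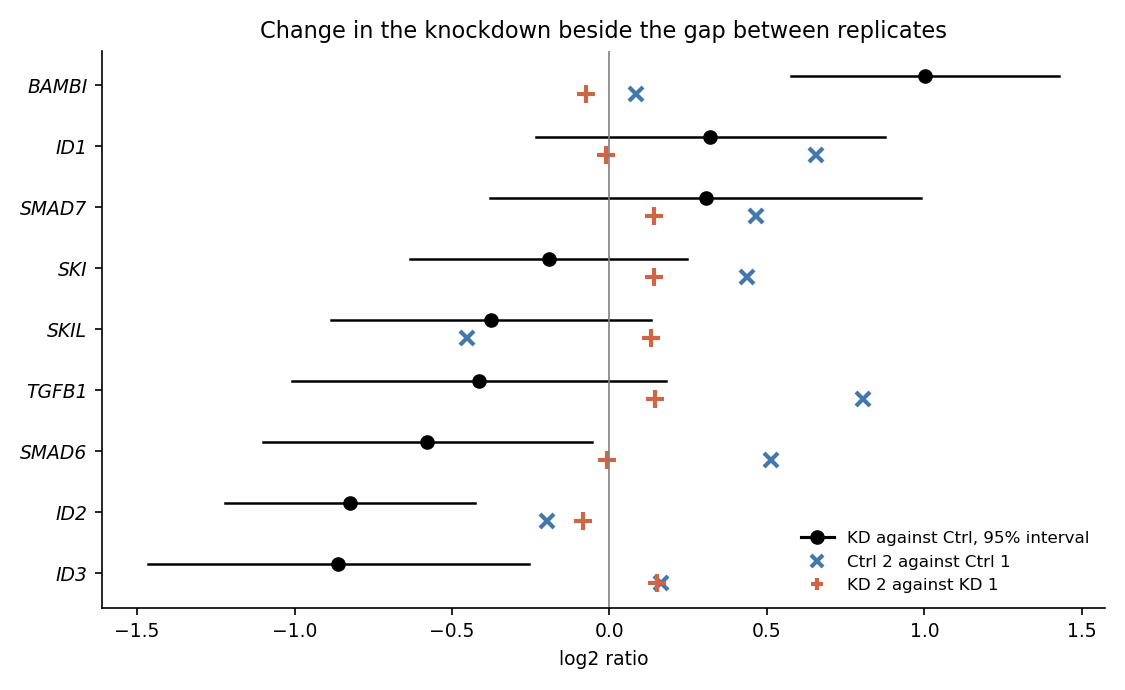
Log2 ratios (horizontal axis) of the 9 tested members. Black points are knockdown against Ctrl with the 95% interval of the edgeR fit, blue crosses are Ctrl 2 against Ctrl 1, and orange plus signs are knockdown 2 against knockdown 1. The intervals of BAMBI, ID2, ID3 and SMAD6 do not reach 0, and the cross of TGFB1 lies at 0.80.

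The gap between the Ctrl libraries followed the GC content of the transcripts. Across the 13162 tested genes with a value, Ctrl 2 against Ctrl 1 had a Spearman's rho of 0.816 with the GC content of the longest transcript, and knockdown 2 against knockdown 1 had 0.408. These are correlations across genes, which are not independent replicates. In the fifth of genes with the lowest GC content the median log2 gap between the Ctrl libraries was -0.39, and in the fifth with the highest it was 0.67. The members lay along this trend: SKIL, with 33.4% GC, had a gap of -0.45, BAMBI with 51.0% had 0.08, ID1 with 58.6% had 0.66 and TGFB1 with 63.5% had 0.80. ID2, with 53.3% GC and a gap of -0.20, lay off it. The knockdown against Ctrl had a rho of -0.0041 with GC content.

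**Figure D4:**
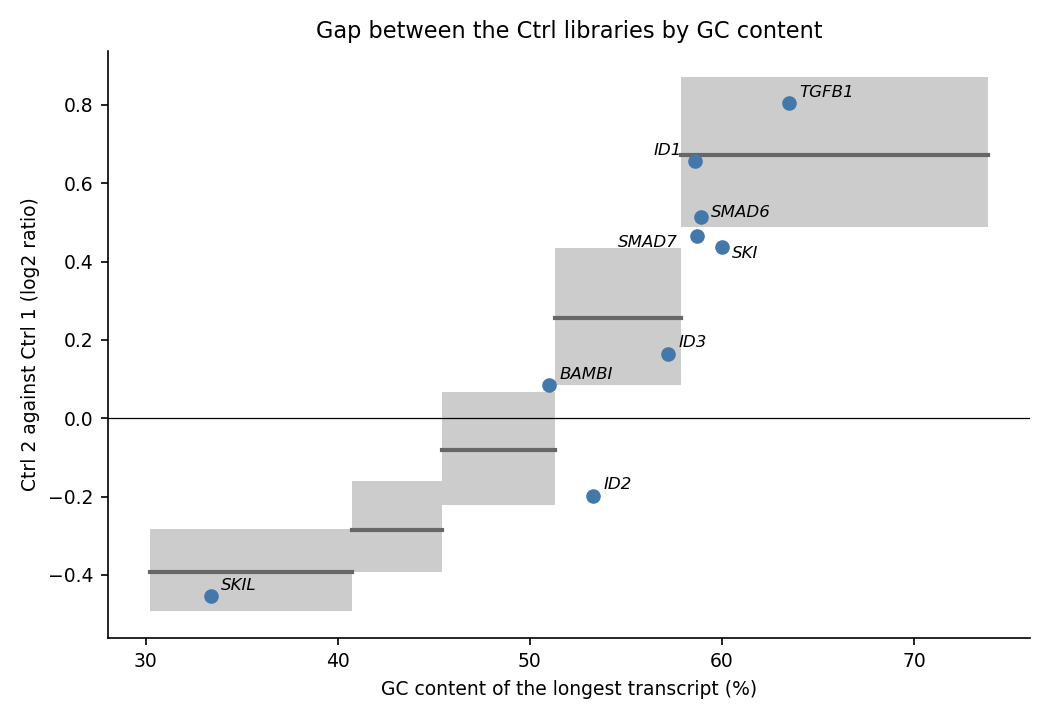
Log2 ratio of Ctrl 2 to Ctrl 1 (vertical axis) against the GC content of the longest transcript (horizontal axis, percent). Grey boxes are the middle 50% of genes in 5 equal-sized bins of GC content with the median as a line, and blue points are the 9 tested members. The medians climb from -0.39 to 0.67, with SKIL at the low end and TGFB1 at the high end.

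A correction that removes this trend from each library brought most Ctrl pairs together. TGFB1 then stood at 238.7 and 241.9 CPM in Ctrl and at 186.0 and 187.0 CPM in the knockdown. SMAD6 was at 27.2 and 27.1 CPM in Ctrl and at 19.0 and 17.8 CPM in the knockdown, SKIL at 24.5 and 24.7 and then 18.6 and 21.3 CPM, and ID1 at 40.1 and 44.7 and then 55.7 and 52.2 CPM. The gap widened for ID2, which stood at 74.5 and 56.8 CPM in Ctrl and at 37.8 and 34.9 CPM in the knockdown. It also widened for ID3, and with the opposite sign, to 3.59 and 3.02 CPM in Ctrl beside 1.74 and 1.84 CPM in the knockdown. After the correction all 9 tested members had groups that did not overlap, 3 higher and 6 lower in the knockdown, as did 66.4% of tested genes. The edgeR test on corrected values called 28.1% of tested genes (13.9% higher and 14.2% lower) and 6 of the 9 members, each with the sign it had before. BAMBI and ID1 were higher, with log2 fold changes of 0.99 ± 0.09 and 0.35 ± 0.08 (SE; edgeR adjusted p = 5.66e-04 and 0.0173). ID2, ID3, SMAD6 and TGFB1 were lower, with -0.85 ± 0.13, -0.88 ± 0.22, -0.56 ± 0.09 and -0.37 ± 0.05 (SE; edgeR adjusted p = 0.00310, 0.0221, 0.00390 and 0.00202). SKIL, SKI and SMAD7 did not pass, with -0.30, -0.19 and 0.30 (edgeR adjusted p = 0.0582, 0.0709 and 0.348).

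The start regions of 4 members are shown: BAMBI and ID2 because they had the smallest p-values, SMAD6 because it holds the palindromic SMAD element, and ID1 to set beside ID2, since their log2 fold changes had opposite signs. Each is the RefSeq window (GRCh38.p14) from 250 bases before a RefSeq start to 50 bases from that start on, written 5′ to 3′ on the gene's own strand. That start need not be the first base of the GENCODE locus given above. The ID2 window lies wholly inside the ID2 locus, which begins at chr2:8678845, so the first bases of that locus were not searched. All 4 genes lie on the plus strand. Capitals mark matches, on either strand, to CAGAC (the SMAD box), GTCTAGAC (its palindromic form), GGCGCC (a GC-rich element that BMP SMADs are known to bind), TATAAA (the TATA box) and CCAAT (the CCAAT box).
BAMBI, chr10:28677271-28677570: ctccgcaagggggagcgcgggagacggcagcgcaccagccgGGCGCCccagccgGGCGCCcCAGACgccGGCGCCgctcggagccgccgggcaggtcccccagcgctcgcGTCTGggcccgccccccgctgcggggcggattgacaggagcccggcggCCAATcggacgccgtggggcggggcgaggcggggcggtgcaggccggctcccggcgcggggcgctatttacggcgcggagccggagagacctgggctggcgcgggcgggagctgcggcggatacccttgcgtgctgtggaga
SMAD6, chr15:66701986-66702285: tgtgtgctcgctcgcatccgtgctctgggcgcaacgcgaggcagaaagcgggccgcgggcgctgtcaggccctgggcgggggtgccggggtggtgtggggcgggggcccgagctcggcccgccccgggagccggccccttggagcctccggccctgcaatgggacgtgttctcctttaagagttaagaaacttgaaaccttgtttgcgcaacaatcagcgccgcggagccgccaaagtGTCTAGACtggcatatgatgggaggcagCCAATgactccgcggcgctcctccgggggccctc
ID1, chr20:31605039-31605338: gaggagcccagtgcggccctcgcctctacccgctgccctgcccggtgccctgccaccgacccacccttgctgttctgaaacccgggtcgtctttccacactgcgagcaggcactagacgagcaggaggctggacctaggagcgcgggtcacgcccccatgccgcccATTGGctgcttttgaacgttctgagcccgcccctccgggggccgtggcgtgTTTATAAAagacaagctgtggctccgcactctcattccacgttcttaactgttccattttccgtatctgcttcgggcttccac
ID2, chr2:8681806-8682105: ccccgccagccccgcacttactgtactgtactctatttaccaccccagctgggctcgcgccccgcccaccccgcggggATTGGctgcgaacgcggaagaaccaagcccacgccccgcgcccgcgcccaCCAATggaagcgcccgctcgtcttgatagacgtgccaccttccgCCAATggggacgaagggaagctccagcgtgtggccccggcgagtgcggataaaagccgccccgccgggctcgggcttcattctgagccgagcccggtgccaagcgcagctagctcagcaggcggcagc

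BAMBI held 3 matches to GGCGCC, starting at positions -209, -196 and -181, and 2 to CAGAC, at -189 and -140 (the start is position 1 and the base before it -1). At least 3 matches to GGCGCC, a number taken from BAMBI itself, occurred in 0.871% of all 35116 RefSeq windows of this length. The BAMBI window has 80.0% GC, and those windows were not matched for GC content. SMAD6 held GTCTAGAC at -12, a sequence found in 0.202% of windows. A TATA box match was found at ID1, where TATAAA starts at -31 and overlaps a match on the other strand at -33, and windows of ID4 and SMAD7 also hold that motif, as do 11.5% of all windows. ID2 held 3 matches to CCAAT (34.6% of windows). Neither ID1 nor ID2 held any of the 3 SMAD motifs. Of the other members with a window, ID3, ID4, SMAD7 and SKIL held CAGAC (45.3% of windows), SKIL also held GGCGCC (19.2% of windows), and TGFB1 held none of the 5 motifs. BAMBI, which was higher, and SMAD6, which was lower, both held SMAD motifs. A match describes the letters of the window and says nothing about binding in these cells. The lack of a match covers the window alone, and sequence farther from the start was not searched.

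The rest of the pathway was read from lists by role. The lists hold 105 further genes, of which 60 were tested. By edgeR 0 passed, with 7 higher and 7 lower when p was not adjusted (under 0.05), beside 6.79% and 8.19% of all tested genes. DESeq2 called 4 (2.99% of all tested genes) and limma-voom 0 (0.678%). Their median log2 fold change was -0.06, with 25 positive and 35 negative, beside 6618 and 6954 of all tested genes. After the GC correction 10 were higher and 13 lower, 23 of 60, beside the 28.1% of all tested genes.

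Among the signal-carrying SMADs, the TGF-beta branch was present and the BMP branch rested on SMAD5. SMAD1 had 1 count in Ctrl 2 and 0 elsewhere, and SMAD9 had 2 counts in knockdown 2 and 0 elsewhere, whereas SMAD5 was at 72.9 and 61.2 CPM in Ctrl and at 67.2 and 65.8 CPM in the knockdown. SMAD3 stood apart from the others. It was at 25.9 and 27.0 CPM in Ctrl and at 44.9 and 48.8 CPM in the knockdown, a log2 difference of 0.82 ± 0.17 (SE; edgeR adjusted p = 0.0869; 5.84e-04 after the GC correction). SMAD4 and SMAD2 had -0.23 ± 0.15 and -0.16 ± 0.15 (SE), and after the GC correction SMAD4 passed and SMAD2 did not (edgeR adjusted p = 0.0445 and 0.134).

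Of the 22 further ligands 7 were tested, with a median of 0.09. BMP2 and BMP4 were at 0 in every library, and BMP6, a ligand of the BMP branch, was at 11.8 CPM per kb in Ctrl and 11.2 CPM per kb in the knockdown. INHA, the inhibin alpha subunit, had 29 and 35 counts in Ctrl against 65 and 78 in the knockdown (log2 fold change 1.09 ± 0.30, SE; edgeR adjusted p = 0.160; 0.00784 after the GC correction). GDF3, a growth factor of the same family, had 0.94 ± 0.38 from at most 34 counts, and BMP8A and BMP8B had 0.18 ± 0.29 and 0.09 ± 0.18 (SE). The 11 tested receptors and co-receptors had a median of -0.03, with 5 positive and 6 negative. The type I activin receptor ACVR1B and the type II TGF-beta receptor TGFBR2 had 0.42 ± 0.16 and 0.37 ± 0.16, and the type II activin receptor ACVR2B and the BMP co-receptor RGMB had -0.41 ± 0.16 and -0.72 ± 0.27 (SE; edgeR adjusted p from 0.281 to 0.355). After the GC correction ACVR1B, TGFBR2 and ACVR2B passed with the same signs (edgeR adjusted p = 0.0108, 0.00743 and 0.0118), and RGMB did not (0.0524).

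Among the 13 tested ligand traps and latent TGF-beta binders, 9 were negative, beside 6954 of all 13572 tested genes. Their median was -0.31, and -0.20 after the GC correction. Of the 13, 10 were also higher in Ctrl 2 than in Ctrl 1. TWSG1, twisted gastrulation, which binds BMPs together with chordin, was at 31.3 and 30.8 CPM in Ctrl and at 15.0 and 14.5 CPM in the knockdown. Its log2 fold change was -1.08 ± 0.18 (SE; edgeR adjusted p = 0.0579; 0.00244 after the GC correction), the smallest unadjusted p of any gene on these lists. THBS1, thrombospondin 1, which can activate latent TGF-beta, had -0.70 ± 0.15, and LTBP1, which tethers latent TGF-beta to the matrix, had -0.40 ± 0.13 (SE). The activin trap FST went the other way, with 17 and 22 counts in Ctrl against 50 and 52 in the knockdown (log2 fold change 1.31 ± 0.32, SE; edgeR adjusted p = 0.123). All 3 passed after the GC correction (edgeR adjusted p = 0.00394 for THBS1, 0.00127 for LTBP1 and 0.0178 for FST).

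The 15 tested ubiquitin ligases, phosphatases and corepressors had a median of 0.01. The corepressor TGIF2 had 0.42 ± 0.14, its paralog TGIF1 -0.42 ± 0.21, the scaffold SIN3A 0.30 ± 0.14 and the deacetylase HDAC1 -0.25 ± 0.13 (SE; edgeR adjusted p from 0.231 to 0.449). After the GC correction TGIF2, SIN3A and HDAC1 passed with the same signs (edgeR adjusted p = 0.00250, 0.00676 and 0.00929), and TGIF1 did not (0.0732). Among the 6 tested genes on the list of other SMAD targets all log2 fold changes were negative, with a median of -0.56, and all 6 were also higher in Ctrl 2 than in Ctrl 1. CDKN1A, the cyclin-dependent kinase inhibitor p21, had 151 and 187 counts in Ctrl against 46 and 76 in the knockdown (log2 fold change -1.54 ± 0.34, SE; edgeR adjusted p = 0.101; 0.00271 after the GC correction). It is also a target of p53. The transcription factors SNAI1 and MSX1 had -0.60 ± 0.33 and -0.52 ± 0.31 (SE). The targets PMEPA1, CCN2, CDKN2B, HAMP, SNAI2 and MSX2 were at 0 in every library.

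The list of helix-loop-helix partners of the ID proteins holds the E proteins TCF3, TCF4 and TCF12. It also holds factors such as TAL1 that are partners of E proteins. The 5 tested genes on it had a median of 0.12. TCF4 was at 66.2 and 49.4 CPM in Ctrl and at 89.0 and 85.5 CPM in the knockdown (log2 fold change 0.59 ± 0.19, SE; edgeR adjusted p = 0.204; 5.26e-04 after the GC correction). TCF3 and LYL1, a relative of TAL1, had -0.22 ± 0.23 and 0.25 ± 0.32 (SE), with Ctrl libraries that differed by more than this. After the GC correction TCF3 passed and LYL1 did not, with log2 fold changes of -0.19 and 0.29 (edgeR adjusted p = 0.0366 and 0.2496). Of these 5 genes TAL1 was the most abundant, at 76.4 CPM per kb in Ctrl and 83.3 CPM per kb in the knockdown. Its log2 difference was 0.12 ± 0.12 (SE).

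**Figure D5:**
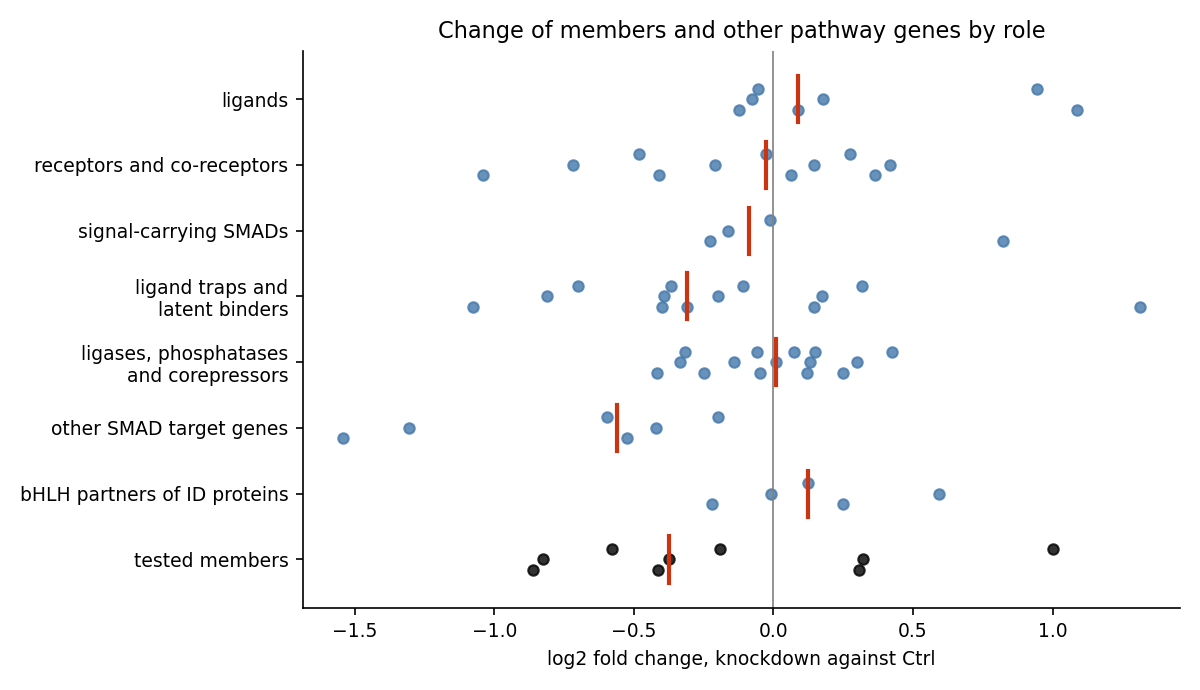
Log2 fold change of knockdown against Ctrl (horizontal axis) for each tested gene of the pathway lists, 1 point a gene, grouped by role, with the median of each group as a red line. The tested members are in black, and LTBP3, which stands on 2 lists, is drawn under both. The medians run from -0.56 for the other SMAD targets to 0.12 for the list named bHLH partners of ID proteins, which also holds partners of E proteins.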

How the data were processed

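Poly(A) RNA-seq of 4 libraries of HEL cells was analysed, 2 Ctrl and 2 AFF4 knockdown, grouped by their titles. The deposited values are whole-number counts of reads per gene symbol. The authors used fastp 0.13.1, HISAT2 2.1.0, featureCounts 1.6.1 and the build hg38, per the submitters' processing notes, which give no role or order. Annotation, strand setting and the handling of reads that map to several places are not given in the sources at hand. The libraries mark strand, per the labels' protocols. The 4 columns were matched to samples by name, with 0 other columns.

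From these counts, edgeR 4.0.16 in R 4.3.3 was run on the whole table: filterByExpr (minimum count 10, minimum total 15), TMM scaling, a quasi-likelihood fit with group as the 1 term, the two-sided quasi-likelihood F test and Benjamini-Hochberg adjustment over 13572 genes. The common biological coefficient of variation was 0.153. The SE was taken as the size of the log2 difference over the root of the F statistic, and 95% intervals use the degrees of freedom of the test. All values are relative to the other genes, since TMM keeps most genes near no change. CPM per kb divides CPM by the exonic length in GENCODE v29 (GRCh38), where 25861 of 28103 symbols matched. The GC correction takes a lowess trend (span 0.4) of each library's log-CPM deviation on the GC content of the longest transcript and enters it as an offset, with GC content known for 97.0% of tested genes. Promoter windows came from the RefSeq table for GRCh38.p14, where 9 of 10 members had one. The procedures were tested on simulated counts. Alternatives were other scalings and filters, DESeq2 1.42.0, limma-voom (limma 3.58.1), a replicate block, the GC correction, each library left out and a stricter threshold.

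The members, the pathway lists and the tests were chosen with earlier results of these data known. Genes named are all members, AFF4, and up to 4 genes a list in order of unadjusted p. BMP2, BMP4, BMP6, SMAD1, SMAD9, the targets listed at 0, the overlapping genes ID2-AS1 and HNRNPUL1 and the cell markers named were picked after their values were seen. Of the genes this rule and the marker lists name, 2 are not reported here.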

Additional observations from a re-analysis of the deposited data

How the results depend on the processing

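With 2 libraries in each group, precision rests on the spread shared across genes, and SMAD7, ID3 and ID4 are also limited by depth. BAMBI, ID2, ID3, SMAD6, ID1, SMAD7 and SKIL kept their sign in every alternative that tested them. With 1 library left out the log2 fold change of SKI ran from -0.394 (without Ctrl 1) to 0.0386 (without Ctrl 2) and that of TGFB1 from -0.759 to 0.0417 in the same fits, so both reversed without Ctrl 2. AFF4 lost its call with the filter of 5 CPM in 2 libraries (log2 fold change -2.10, edgeR adjusted p = 0.0552) and in no other alternative.

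The counts of calls depended on the processing. Of all tested genes 87 were called, against 734 with no filter, 5 with the filter of 5 CPM in 2 libraries, 406 in DESeq2, 3818 after the GC correction, 5152 after the GC correction with the replicate block, 3 at an adjusted p under 0.01, and 46 to 6722 with 1 library left out. Of the members 0 were called, against 2 with no filter, in DESeq2 and with the replicate block, in each case ID2 and BAMBI, then 6 after the GC correction, 8 after the GC correction with the replicate block, and 0 to 6 with 1 library left out. Of the pathway lists 0 were called, against 6 with no filter, 4 in DESeq2, 23 after the GC correction, 31 after the GC correction with the replicate block, and 0 to 32 with 1 library left out. Among the fits with 1 library left out, the high counts were those without Ctrl 1 or Ctrl 2, where the spread comes from the knockdown pair alone, since a library left alone is assumed to vary like the other group. Without knockdown 1 or 2 the members called were 0, and the pathway gene called without knockdown 2 was CDKN1A.

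The replicate numbers are shared by the groups, but nothing in the labels says that a number marks a shared culture or day. The deviations of same-numbered libraries correlated at 0.285 across genes. Both replicate gaps followed GC content in the same direction (Spearman's rho 0.816 in Ctrl and 0.408 in the knockdown). The part of GC content in the 0.285 was not tested. With the replicate block 888 genes, 2 members and 7 pathway genes were called.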
